A study of Mus musculus with 4 samples.

Results

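The 9 autosomal genes described here were read almost only from the paternal allele in all 4 libraries of epiblast stem cells (EpiSCs) from female mouse embryos, pluripotent cells derived from the embryonic epiblast. They are Slc38a4, Zdbf2, Edn3, Tmem63c, Tmem132b, Osbp2, Klhl32, Myo3a and BC021767. The rule took autosomal genes with at least 50 allele-assigned reads, which are reads over a variant that tells the parental alleles apart, and a paternal share of at least 90% of those reads in every library. Of 21734 autosomal genes among 22686 in all, 8545 had the reads, and 13 of these (0.152%) also had the share. Then 4 genes known to be imprinted (Nnat, Peg10, Zrsr1 and Kcnq1ot1) were left out by name, which gave the 9. The other names that the rule leaves out, among them further imprinted genes, histocompatibility genes and ribosomal protein genes, did not reach these thresholds. The genes were chosen by these read counts and paternal shares, so the shares are given as a description with no test.

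The cells came from E6.5 embryos of a cross in which C57BL6/J is written first, the usual place of the mother, and an F1 of JF1 and C57BL6/J second. JF1 is an inbred strain derived from Japanese mice. There was 1 library for each combined genotype: MD1/MD1 XistdeltaA/+, +/+ XistdeltaA/+, MD1/MD1 Xist1lox/+ and +/+ Xist1lox/+, where MD1/MD1 and +/+ are the Smchd1 genotypes. The protein SmcHD1 binds chromatin and helps keep genes silent on the inactive X. Every library also carried 1 of 2 mutations of Xist, the RNA that coats that X, so no library was free of a mutation. Nothing in the labels says how many embryos or lines stand behind a library.

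A gene can be read from 1 parental allele for several reasons that allele counts alone do not separate. In genomic imprinting, a mark set in the egg or sperm silences 1 parental copy whatever its sequence. In a cis effect, a sequence difference between strains makes 1 copy less active whichever parent it came from. In all 4 libraries the JF1 variants came from the father, so paternal origin and JF1 origin cannot be told apart here. The genes were proposed as strain cis effects. As background, Slc38a4 and Zdbf2 are known as imprinted genes expressed from the paternal allele in mice, so that name is not used here for the 9 genes. The cause of the paternal reads was not tested for any of them.

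Start regions of 3 of the genes are shown for 2 reasons: Slc38a4 and Zdbf2 are the known imprinted genes, and Klhl32 had the fewest maternal reads among those of the 9 with over 100 reads in each library. The sequences are from RefSeq (build GRCm38.p6) and run from 250 bases before to 50 bases after an annotated start, 5′ to 3′. That reference is C57BL/6J, the strain on the maternal side, so what is printed is that strain's version of each region. Reads were counted per gene, so they do not show which start was used on either allele. Capitals mark CG, the dinucleotide at which mammalian DNA is methylated.
Slc38a4, chr15:97055907-97056206, minus strand: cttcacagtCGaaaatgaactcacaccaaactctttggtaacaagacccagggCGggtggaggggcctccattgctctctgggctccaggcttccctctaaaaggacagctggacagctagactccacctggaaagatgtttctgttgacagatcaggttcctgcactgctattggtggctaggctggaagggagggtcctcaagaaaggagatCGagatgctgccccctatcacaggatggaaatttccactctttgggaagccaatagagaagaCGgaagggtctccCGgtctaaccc
Zdbf2 upstream start, chr1:63200108-63200407, plus strand: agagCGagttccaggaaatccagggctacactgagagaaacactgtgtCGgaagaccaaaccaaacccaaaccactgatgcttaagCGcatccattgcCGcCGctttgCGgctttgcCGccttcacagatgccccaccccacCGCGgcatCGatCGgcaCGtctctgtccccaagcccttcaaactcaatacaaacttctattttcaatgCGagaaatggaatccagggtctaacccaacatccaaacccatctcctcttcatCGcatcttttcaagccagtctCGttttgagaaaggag
Zdbf2 downstream start, chr1:63273019-63273318, plus strand: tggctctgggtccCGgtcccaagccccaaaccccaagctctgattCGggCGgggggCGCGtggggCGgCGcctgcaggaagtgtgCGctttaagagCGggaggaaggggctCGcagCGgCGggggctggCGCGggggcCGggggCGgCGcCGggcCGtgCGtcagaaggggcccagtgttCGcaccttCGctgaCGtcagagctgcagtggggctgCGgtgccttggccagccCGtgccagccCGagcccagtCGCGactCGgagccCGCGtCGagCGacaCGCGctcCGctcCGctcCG
Klhl32, chr4:24851075-24851374, minus strand: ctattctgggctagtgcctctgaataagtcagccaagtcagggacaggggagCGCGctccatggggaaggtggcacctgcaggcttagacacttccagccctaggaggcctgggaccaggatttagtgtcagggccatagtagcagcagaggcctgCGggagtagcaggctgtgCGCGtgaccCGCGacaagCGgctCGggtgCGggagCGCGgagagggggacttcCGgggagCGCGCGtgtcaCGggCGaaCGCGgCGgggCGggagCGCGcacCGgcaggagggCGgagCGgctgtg

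The printed Slc38a4 region, the outermost of 3 annotated starts, held 5 CG pairs. The Zdbf2 regions held 15 and 38, and the Klhl32 region 27. Over 32851 start regions in the table the median was 7. Of the 9 genes, 8 had a start region there, 14 regions in all, with 2 to 38 CG pairs, and 9 of the 14 lay above the median, as 48.6% of all regions did. The hexamer TGCCGC, in its methylated form the known binding sequence of ZFP57, a protein that keeps imprinting marks in place, was searched on both strands (GCGGCA on the other). It stood in 3 of the 14 regions, 1 each of Zdbf2, Osbp2 and Tmem63c, and in 11.6% of all regions. In the upstream Zdbf2 region it occurred 3 times, from bases 96, 115 and 144. A match describes the letters of these windows and shows no binding.

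Slc38a4 encodes a transporter that carries neutral amino acids into cells (mm9, chromosome 15, 96825254 to 96886387, minus strand). It had the most reads of the 9 genes. Maternal reads numbered 2 of 1639 in MD1/MD1 XistdeltaA/+ and 1 of 2003 in +/+ XistdeltaA/+. They numbered 0 of 1415 in MD1/MD1 Xist1lox/+, which allows a maternal share of up to 0.212%, and 52 of 1482 in +/+ Xist1lox/+. The maternal share in that last library was 3.51% (95% exact Clopper-Pearson interval 2.63 to 4.58), and it stood apart from the other 3 libraries, whose intervals ended at or below 0.44%. There is 1 library of each genotype, so nothing shows whether this belongs to the genotype or to that library. The limit for 0 maternal reads is 3 divided by the number of reads, an approximate 1-sided 95% bound. That limit lies below the upper end of the exact interval, which was 0.26% in MD1/MD1 Xist1lox/+. Intervals and limits cover counting error only. Pced1b, the nearest measured gene at 191 kb, had paternal shares of 42.9 to 62.9%. Slc38a2 and Slc38a1, of the same transporter family and picked out after their values were seen, were read from both alleles: Slc38a2, 295 kb away, had paternal shares of 46.7 to 48.4% and Slc38a1, 352 kb away, of 44.8 to 48.2%. Slc38a4 FPKM (fragments of a gene relative to transcript length and library size, from all its reads) was 29.1 in MD1/MD1 XistdeltaA/+ against 34.8 in +/+ XistdeltaA/+, and 26.5 in MD1/MD1 Xist1lox/+ against 25.9 in +/+ Xist1lox/+.

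Zdbf2, a zinc finger gene (chromosome 1, 63246932 to 63361149, plus strand), had the paternal shares that varied least among the 9 genes. Its paternal share was 98.9% of 566 reads in MD1/MD1 XistdeltaA/+ and 99.2% of 492 in +/+ XistdeltaA/+. In the other pair it was 99.4% of 629 in MD1/MD1 Xist1lox/+ and 98.9% of 661 in +/+ Xist1lox/+. A few maternal reads were present each time, 4 to 7 a library, and the 4 intervals overlapped. The neighbours on either side, Eef1b2 at 19.9 kb and Adam23 at 131 kb, had paternal shares of 48.8 to 52% and 45.4 to 66.1%. Zdbf2 FPKM was 4.47 in MD1/MD1 XistdeltaA/+ against 3.76 in +/+ XistdeltaA/+, and 4.39 in MD1/MD1 Xist1lox/+ against 4.17 in +/+ Xist1lox/+.

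Edn3 encodes endothelin 3, a secreted peptide needed for pigment cells and for the neurons of the gut (chromosome 2, 174586259 to 174609543, plus strand). Its maternal reads numbered 2 of 85 in MD1/MD1 XistdeltaA/+ and 6 of 132 in +/+ XistdeltaA/+. None was found among 75 in MD1/MD1 Xist1lox/+ and 94 in +/+ Xist1lox/+, which allows up to 4% and 3.19%. At this depth the 4 libraries could not be told apart. Gnas, an imprinted gene 414 kb away that was also picked out after its values were seen, had paternal shares of 54.6 to 63.4%, and the nearest measured neighbour Slmo2, at 288 kb, of 51.4 to 59.4%. On the other side the nearest was Phactr3, 3244 kb away, at 13.7 to 50.8%. Edn3 FPKM was 2.01 in MD1/MD1 XistdeltaA/+ against 3.8 in +/+ XistdeltaA/+, and 1.95 in MD1/MD1 Xist1lox/+ against 2.48 in +/+ Xist1lox/+. It was lower in the MD1/MD1 library of both pairs.

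Tmem63c and Tmem132b encode membrane proteins, the first of a family of channels that open on mechanical or osmotic stress. Tmem63c (chromosome 12, 88367514 to 88430989, plus strand) had maternal reads of 5 of 265 in MD1/MD1 XistdeltaA/+ and 2 of 224 in +/+ XistdeltaA/+, and of 1 of 197 in MD1/MD1 Xist1lox/+ and 5 of 228 in +/+ Xist1lox/+. Its paternal shares, 97.8 to 99.5%, overlapped in their intervals. Cipc and Pomt2, the nearest genes on each side, were at 49.2 to 53.8% and 37.5 to 50.2%, while Gstz1 in the same neighbourhood averaged 81.6% over the libraries. Tmem63c FPKM was 4.73 in MD1/MD1 XistdeltaA/+ against 5.07 in +/+ XistdeltaA/+, and 4.37 in MD1/MD1 Xist1lox/+ against 4.18 in +/+ Xist1lox/+.

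Tmem132b (chromosome 5, 126012788 to 126272953, plus strand) is 260 kb long. It had a paternal share of 96.7% of 151 reads in MD1/MD1 XistdeltaA/+ and 93% of 128 in +/+ XistdeltaA/+. In the other pair it was 97.9% of 144 in MD1/MD1 Xist1lox/+ and 97.6% of 164 in +/+ Xist1lox/+. The +/+ XistdeltaA/+ library held the most maternal reads, 9, and its interval of 87.1 to 96.7% overlapped those of the others. Aacs, 15 kb away, was at 47 to 51.9%, and Slc15a4, 1803 kb away on the other side, at 49.5 to 53.5%. Tmem132b FPKM was 0.931 in MD1/MD1 XistdeltaA/+ against 0.838 in +/+ XistdeltaA/+, and 0.966 in MD1/MD1 Xist1lox/+ against 1.04 in +/+ Xist1lox/+.

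Osbp2 belongs to the oxysterol-binding protein family, which binds and moves sterols and other lipids (chromosome 11, 3603734 to 3763906, minus strand). Its maternal reads numbered 6 of 168 in MD1/MD1 XistdeltaA/+ and 4 of 251 in +/+ XistdeltaA/+, and 2 of 98 in MD1/MD1 Xist1lox/+ and 5 of 162 in +/+ Xist1lox/+. Paternal shares of 96.4 to 98.4% had overlapping intervals. Morc2a at 13.4 kb was at 43.4 to 52.3% and Dusp18 at 31.3 kb at 30.7 to 51.9%. Within 1 Mb lay also a gene read the other way, 8430429K09Rik, with a mean paternal share of 2.05%. Osbp2 FPKM was 3.6 in MD1/MD1 XistdeltaA/+ against 5.64 in +/+ XistdeltaA/+, and 2.48 in MD1/MD1 Xist1lox/+ against 3.86 in +/+ Xist1lox/+. Like Edn3, it was lower in the MD1/MD1 library of both pairs.

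Klhl32, of the Kelch-like family (chromosome 4, 24544420 to 24778233, minus strand), had no maternal read among 148 in MD1/MD1 XistdeltaA/+ and 206 in +/+ XistdeltaA/+, which allows up to 2.03% and 1.46%. It had 1 of 166 in MD1/MD1 Xist1lox/+ and 2 of 138 in +/+ Xist1lox/+. Mms22l, 14.3 kb away, was at 46.5 to 53.4%, and Ndufaf4, 47 kb away on the other side, at 61.9 to 66.4%. Klhl32 FPKM was 5.96 in MD1/MD1 XistdeltaA/+ against 10.5 in +/+ XistdeltaA/+, and 7.48 in MD1/MD1 Xist1lox/+ against 6.15 in +/+ Xist1lox/+. The order of MD1/MD1 and +/+ thus differed between the pairs.

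Myo3a, a class III myosin known from the hair cells of the inner ear (chromosome 2, 22149130 to 22473772, plus strand), lay closest to the share threshold. Its paternal share was 92.4% of 79 reads in MD1/MD1 XistdeltaA/+ and 92.4% of 118 in +/+ XistdeltaA/+, and 94.4% of 71 in MD1/MD1 Xist1lox/+ and 97.2% of 71 in +/+ Xist1lox/+. In the first 3 of these libraries the interval reached below 90%, to 84.2, 86 and 86.2%. Gad2, which encodes a glutamate decarboxylase and starts 4.08 kb beyond the end of Myo3a, had paternal shares of 95.5 to 100% on only 15 to 25 reads, too few for the rule. Gad2 was picked out after its values were seen. Pdss1 beyond it was at 59 to 76.3%, and Thnsl1, 1012 kb away on the other side, at 33.6 to 39.9%. Myo3a FPKM was 0.65 in MD1/MD1 XistdeltaA/+ against 1.24 in +/+ XistdeltaA/+, and 0.787 in MD1/MD1 Xist1lox/+ against 0.744 in +/+ Xist1lox/+.

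BC021767 is annotated in RefSeq as a transcribed pseudogene (chromosome 3, 94464511 to 94471074, minus strand), and reads of a pseudogene can be shared with the gene it was copied from, so its values are uncertain. No maternal read was found among 78 in MD1/MD1 XistdeltaA/+, 97 in MD1/MD1 Xist1lox/+ and 66 in +/+ Xist1lox/+, which allows up to 3.85, 3.09 and 4.55%, and 1 was found among 104 in +/+ XistdeltaA/+. Tuft1, only 1.72 kb away, was read from both alleles, with paternal shares of 43.8 to 49.5%, and so was Cgn, 92.9 kb away on the other side, with 45.3 to 47.1%. BC021767 FPKM was 4.44 in MD1/MD1 XistdeltaA/+ against 4.66 in +/+ XistdeltaA/+, and 4.57 in MD1/MD1 Xist1lox/+ against 4.3 in +/+ Xist1lox/+.

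**Figure D1:**
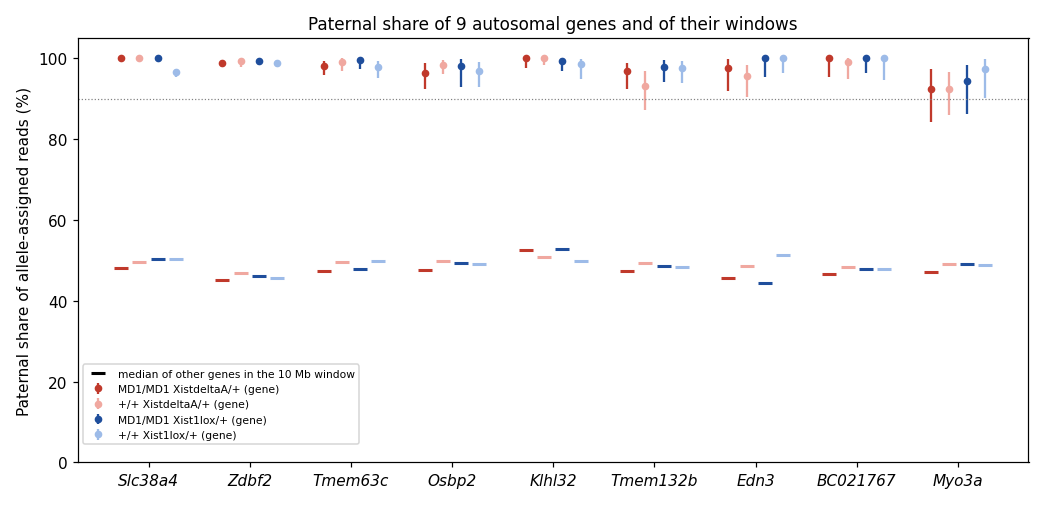
Points give the paternal share of allele-assigned reads (percent, vertical axis) of each gene in the 4 libraries with exact 95% intervals, and short bars the median share of the other genes in the same 10 Mb window. The 9 genes sit at 92.4% or more, above the dotted line at 90%, and their windows between 44.3 and 52.7%.

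Over the 9 genes and 4 libraries, 160 of 12795 allele-assigned reads were maternal, and 8 of 36 values had none. At the threshold, the lowest shares inside were those of Myo3a (92.4%), Tmem132b (93%) and Edn3 (95.5%). Just outside lay Sgce, with a lowest share of 88% in MD1/MD1 XistdeltaA/+ and 97.1 to 99.7% elsewhere, Rps6kl1 with 86.1% in MD1/MD1 Xist1lox/+ and Msc with 85.1% in +/+ XistdeltaA/+. The rule leaves out Sgce, a known imprinted gene, and Rps6kl1, whose name matches its pattern for ribosomal protein genes (Rpl or Rps and digits), in any case.

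The surroundings of the genes, which the rule did not use, were read from both parental alleles. The cross leaves some regions with maternal-type alleles alone, called here where the median paternal share of a 10 Mb window is under 5%, 36 to 71 of 250 or 251 autosomal windows in a library. None of the 9 genes lay in such a window in any of the 4 libraries, though Zdbf2 did in at least 1 with windows of 20 Mb. Their window medians, over 14 to 103 genes, ran from 44.3% for Edn3 to 52.7% for Klhl32, both in MD1/MD1 Xist1lox/+. A gene can pass the rule only where paternal variants are present in all 4 libraries, so this was largely set in advance by the rule. Within 1 Mb on either side, 130 other genes had at least 20 reads in each library, and the mean paternal share of 104 of them was 40 to 60%. The median neighbour of each of the 9 genes was between 47.3 and 54.7%. The genes lie on 8 chromosomes, and the 2 on chromosome 2 are far apart, so they form no cluster.

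**Figure D2:**
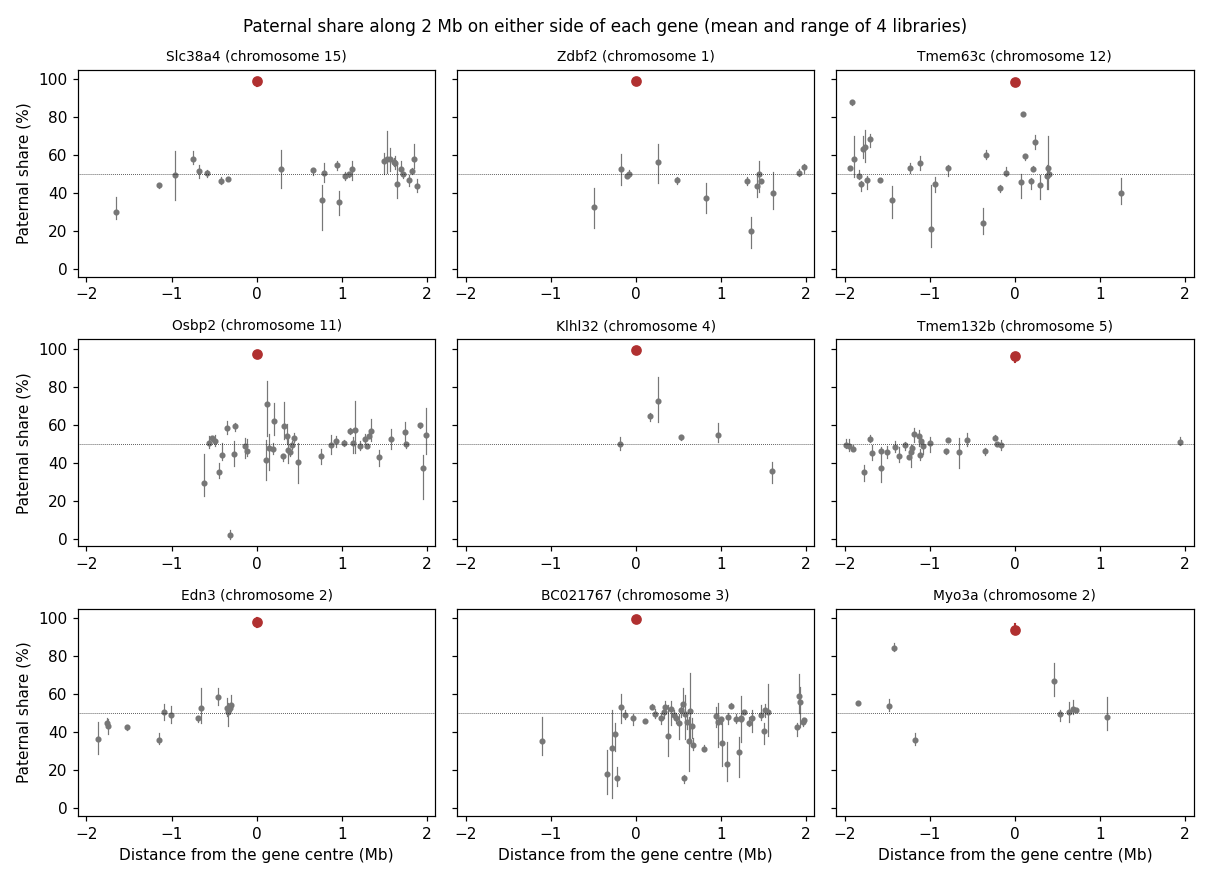
Each panel gives the paternal share (percent, vertical axis) of genes with at least 20 reads in all 4 libraries against their distance in Mb from the centre of 1 of the 9 genes, as the mean (dot) and range (line) of the 4 libraries. The gene in red stands near 100% while most grey neighbours scatter around 50%, with single exceptions such as 8430429K09Rik near Osbp2 and Gstz1 near Tmem63c.

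In windows with both alleles in all 4 libraries, 13 of 4836 genes with enough reads (0.269%) had a paternal share of at least 90% throughout, the 9 genes and the 4 left out by name. In the same windows 32 genes (0.662%) were at 10% paternal or less throughout. At limits of 80% and 20% the counts were 20 and 63. These counts describe the table. The median gene of these windows had a paternal share of 47.3 to 49.3%.

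The known imprinted genes that the rule names were used as a comparison. Of 16, 11 had at least 50 reads in all 4 libraries. Over all 16, 45 values of a gene in a library had at least 50 reads, 1 of them of Ndn, which is not among the 11. Where a library had both alleles in the window, 28 of 36 values were at 90% paternal or more. Those below were Igf2 in every library (50.3 to 86%), Plagl1 in both MD1/MD1 libraries (70.3 and 85.5%), and Ndn (41.5%) and Sgce (88%) in MD1/MD1 XistdeltaA/+. Where it had maternal-type alleles alone, 9 of 9 were at 10% or less. No paternal variant is present to be read there, so this was set by the windows and does not show which copy was read. Peg3, which encodes a zinc finger protein, had 0.253% in MD1/MD1 XistdeltaA/+, 0.112% in +/+ XistdeltaA/+, 0% in MD1/MD1 Xist1lox/+ and 99.6% in +/+ Xist1lox/+, the 1 library with both alleles there. Among the 4 imprinted genes past the same thresholds, Nnat had no maternal read among 421 to 715 a library, Peg10 had 0.84 to 3% maternal reads, Zrsr1 0.926 to 6.47% and Kcnq1ot1 0 to 2.41%. The 9 genes had 0 to 7.63%. The rule holds both sets to at most 10%, so nothing is read from their likeness. For none of the 9 was there a library with maternal-type alleles alone around it, which the rule largely ensures. How they are read in such a library was thus not seen.

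The 9 genes were expressed at low levels, with a median of the mean FPKM of 4.2 against 14.2 for all 8545 genes with enough reads, and 8 of 9 were below that median. Their median length was 114 kb, against 24.6 kb. Slc38a4, with 25.9 to 34.8 FPKM, was above the other 8 genes in every library. Klhl32 came next at 5.96 to 10.5 FPKM, clear of the rest. Tmem63c, BC021767, Zdbf2 and Osbp2 had mean FPKM of 4.59, 4.49, 4.2 and 3.89 with overlapping ranges, and Edn3 at 2.56 overlapped Zdbf2 and Osbp2. Tmem132b and Myo3a, at 0.945 and 0.855 FPKM, overlapped each other and lay below all others. By name, 1 of 9 was a gene model without a gene name (BC021767), as were 3.03% of the 8545, and 0 were zinc finger genes of the Zfp series, 2.42% of all. Names of pseudogenes, histones and olfactory receptors were not found among the 9, and made up 0.0234%, 0.0117% and 0% of all.

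**Figure D3:**
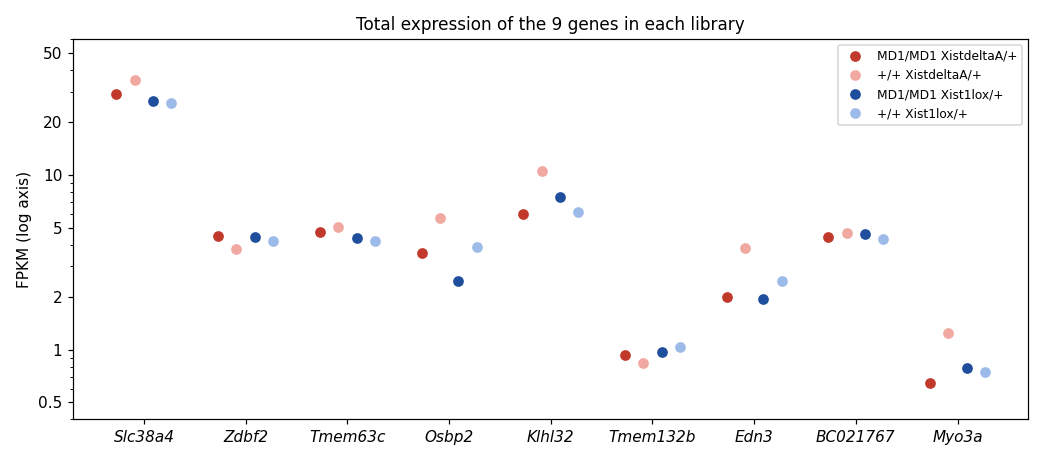
FPKM of each gene (log axis) in the 4 libraries, without error bars because each genotype has 1 library. Slc38a4 lies highest at 25.9 to 34.8. Of the 9 genes, 7 are highest in +/+ XistdeltaA/+, among them Slc38a4, Osbp2, Klhl32, Edn3 and Myo3a.

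The next comparison asked whether total expression of the genes differed with Smchd1 genotype. Smchd1 itself was at 6.68 FPKM in MD1/MD1 XistdeltaA/+ against 27 in +/+ XistdeltaA/+, and at 5.98 in MD1/MD1 Xist1lox/+ against 20.9 in +/+ Xist1lox/+. With limma on log2(FPKM + 1) over 11471 genes whose mean FPKM reached 1, with terms for Smchd1 genotype and Xist mutation, 0 of the 7 genes that passed this filter were called, 0 had an unadjusted p under 0.05, and 4 of all genes (0.0349%) were called, with 374 at an unadjusted p under 0.05. Tmem132b and Myo3a did not pass the filter. edgeR's quasi-likelihood test on allele-assigned reads also called 0 of 9, with 0 at an unadjusted p under 0.05, against 0.043% of all genes called and 304 at an unadjusted p under 0.05. DESeq2 called 0 of 9, with 0 at an unadjusted p under 0.05, against 22 of all genes (0.192%) called and 313 at an unadjusted p under 0.05. Allele-assigned reads cover variants only and are almost all paternal for the 9 genes. For them edgeR and DESeq2 thus compared mostly paternal reads, while FPKM covers all reads. Osbp2 had the largest estimate, a log2 change of -0.51 (SE 0.21, limma adjusted p = 0.937), and was lower in MD1/MD1 in both pairs, by -0.53 and -0.48. Edn3 followed with -0.46 (SE 0.25, limma adjusted p = 0.937), and ratios of -0.67 and -0.24. The model had 1 residual degree of freedom, so a missed threshold does not show equal levels. In bulk libraries, fewer cells that express a gene and less of its RNA per cell cannot be told apart.

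Within pairs, none of the 7 genes was 2-fold higher or lower in the XistdeltaA/+ pair, as 5.73% of all genes were, none in the Xist1lox/+ pair (0.819%) and none in both pairs (0.244%). The median log2 ratio of the 7 was -0.25 with XistdeltaA/+ and 0.05 with Xist1lox/+, where all genes had -0.05 and 0.00. With XistdeltaA/+, 6 of 7 were below 0, as were 55% of all genes, and with Xist1lox/+ 2 of 7, as were 49.2%. The lowest ratio with XistdeltaA/+ was that of Klhl32, -0.73, and it was 0.25 with Xist1lox/+.

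**Figure D4:**
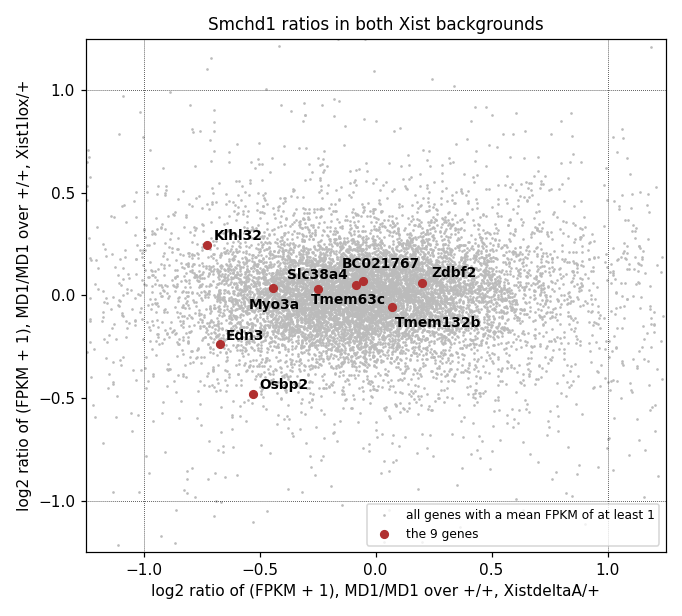
Log2 ratio of (FPKM + 1), MD1/MD1 over +/+, in XistdeltaA/+ (horizontal axis) and in Xist1lox/+ (vertical axis) for the 9 genes in red and all genes whose mean FPKM reached 1 in grey, with dotted lines at 2-fold. All 9 genes lie inside the lines, Klhl32, Edn3 and Osbp2 farthest to the left. Grey genes beyond the axes, 421 in all, are not drawn.

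The +/+ XistdeltaA/+ library held the highest FPKM of 7 of the 9 genes, and of 39.1% of the 8545 genes with enough reads. The libraries also differed in marker genes. The 8 measured macrophage markers summed to 907 FPKM in MD1/MD1 XistdeltaA/+ against 23.4 in +/+ XistdeltaA/+, and to 292 in MD1/MD1 Xist1lox/+ against 323 in +/+ Xist1lox/+. Of these 8, Fcgr3, C1qa, C1qb and Emr1 were listed at 0 in +/+ XistdeltaA/+, and Csf1r and Cd14 were lowest there too. Cd68 was at 21.7 FPKM there, against 34.6 in MD1/MD1 XistdeltaA/+, 18.1 in MD1/MD1 Xist1lox/+ and 19.3 in +/+ Xist1lox/+. Lyz2 made up most of the other sums, at 799 FPKM in MD1/MD1 XistdeltaA/+, 247 in MD1/MD1 Xist1lox/+ and 274 in +/+ Xist1lox/+. Its level in +/+ XistdeltaA/+ was 0.384. The 8 fibroblast markers summed to 120 against 43.1 FPKM in the XistdeltaA/+ pair and to 57.9 against 56.6 in the Xist1lox/+ pair, MD1/MD1 against +/+. Both the macrophage and the fibroblast sum were thus highest in MD1/MD1 XistdeltaA/+ and lowest in +/+ XistdeltaA/+. Col1a1, Col1a2, Col3a1, Acta2 and Lum were lowest in +/+ XistdeltaA/+. Dcn and Thy1 were not, at 7.77 and 8.15 FPKM, and Postn was highest there, at 2.03 against 1.02 to 1.54. The part of these differences in the ratios of the 9 genes was not tested. Without +/+ XistdeltaA/+, the estimates of Klhl32 and Slc38a4 for Smchd1 genotype were 0.10 and 0.10, in place of -0.24 and -0.11. Those of Osbp2 and Edn3 were then -0.28 and -0.22, in place of -0.51 and -0.46. The 7 EpiSC markers summed to 1411 FPKM in MD1/MD1 XistdeltaA/+ against 930 in +/+ XistdeltaA/+, and to 1393 in MD1/MD1 Xist1lox/+ against 1481 in +/+ Xist1lox/+. The sum was thus lowest in +/+ XistdeltaA/+, but not every marker was. Pou5f1, Dnmt3b and Sox2 were lowest there, at 551, 144 and 30.5 FPKM. Otx2 and T were highest there, at 80.9 and 0.465, and Fgf5 and Nanog lay between the other libraries, at 35.7 and 87.1. Pou5f1 was at 551 to 984 FPKM over the libraries, and of the 7 only T was under 1 FPKM, at 0.218 to 0.465.

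For the Xist mutation, Xist1lox/+ was set over XistdeltaA/+ in the same limma fit. None of the 7 genes was called, none had an unadjusted p under 0.05, and 0% of all genes were called, with 368 at an unadjusted p under 0.05. edgeR called 0 of 9, with 0 at an unadjusted p under 0.05, and 0% of all genes, with 325 at an unadjusted p under 0.05. DESeq2 called 0 of 9, with 0 at an unadjusted p under 0.05, against 5 of all genes (0.0326%) called and 223 at an unadjusted p under 0.05. Osbp2 had the largest of the 7 estimates, -0.43 (SE 0.21, limma adjusted p = 0.927). It was -0.16 without +/+ XistdeltaA/+, -0.19 without MD1/MD1 Xist1lox/+, -0.69 without MD1/MD1 XistdeltaA/+ and -0.67 without +/+ Xist1lox/+. Without MD1/MD1 Xist1lox/+, Klhl32 at -0.32 and Slc38a4 at -0.29 were larger in size, and Tmem63c at -0.19 was as large. Osbp2 FPKM was 2.48 in MD1/MD1 Xist1lox/+ against 3.6 in MD1/MD1 XistdeltaA/+, and 3.86 in +/+ Xist1lox/+ against 5.64 in +/+ XistdeltaA/+. It was thus lower with Xist1lox/+ in both Smchd1 genotypes. Slc38a4 was lower in both as well, with an estimate of -0.27 (SE 0.17, limma adjusted p = 0.927), which ran from -0.40 without MD1/MD1 XistdeltaA/+ to -0.15 without +/+ XistdeltaA/+.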

How the data were processed

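RNA of 4 EpiSC libraries was sequenced from stranded mRNA libraries, per the labels' protocols, and the table uses mouse build mm9. The deposited table gives for each library the allele-assigned read count of a gene, the paternal fraction of those reads, and FPKM, per the file headers. Cufflinks 2.2.1 and Cuffdiff stand in the submitters' processing notes, which do not tie them to a column. The sources used here do not give the aligner or the variant filter. The deposited fraction times the read count gave whole paternal reads for 100% of values within 1e-06. In the same table, 6 columns match no library described here and were left unused.

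Start coordinates count from 0 in the deposited table, checked on the lengths of 1117 olfactory receptor genes, and 1 was added. Allele-assigned reads totalled 7301034 to 8008500 a library. Windows of 10 Mb were called maternal-type from at least 3 other genes with at least 20 reads, where their median paternal share was under 5%. Total expression was tested with limma 3.58.1 (R 4.3.3, trend) on log2(FPKM + 1) for genes whose mean FPKM reached 1, with Smchd1 genotype and Xist mutation as terms, and Benjamini-Hochberg adjusted p-values under 0.05 over all tested genes were called. The scripts were tested on simulated data. Alternatives were edgeR 4.0.16 and DESeq2 1.42.0 on the deposited allele-assigned read counts, other pseudocounts, filters, scaling, windows and thresholds, and leaving out each library. With 1 library per combined genotype, and nothing that says whether libraries are separate cultures, p-values measure only the spread between these libraries. All 9 genes are named, with the genes just outside the thresholds and the nearest measured neighbours. The members, lists and tests were chosen with earlier results of these data known.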

Additional observations from a re-analysis of the deposited data

Results flagged for a closer look

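For 6 of the 9 genes the log2 ratio of (FPKM + 1), MD1/MD1 over +/+, had opposite signs with XistdeltaA/+ and with Xist1lox/+. Of all genes whose mean FPKM reached 1, 55% had a ratio below 0 with XistdeltaA/+ and 49.2% with Xist1lox/+. Those shares are of each pair alone, and Myo3a and Tmem132b, among the 6, did not reach that mean FPKM. The share of all genes with opposite signs was not counted, so 6 of 9 is not shown to be unusual. With 1 library per combined genotype the difference was not tested. The ratio with XistdeltaA/+ minus that with Xist1lox/+ was -0.973 for Klhl32, -0.477 for Myo3a, -0.28 for Slc38a4, -0.136 for Tmem63c, -0.128 for BC021767 and 0.126 for Tmem132b. Both ratios were under 0.1 in size for BC021767, Tmem63c and Tmem132b. For Klhl32, Myo3a and Slc38a4 the +/+ XistdeltaA/+ library was the high one.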

How the results depend on the processing

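The rule gave 9 genes. With at least 100 reads it gave 5, without BC021767, Edn3, Myo3a and Osbp2, and with a share of at least 80% it gave 14, adding Gm13375, Gstz1, Msc, Snap25 and Tbc1d8 (Rps6kl1 and Sgce are left out by name). With 20 Mb windows 1 gene, Zdbf2, lay in a maternal-type window in at least 1 library, and under the other window settings 0 did. The number of the genes called was 0 in both contrasts under every alternative run, with adjusted p from 0.246 to 1 for Smchd1 and from 0.0818 to 1 for Xist. Over all genes, limma called 4 for Smchd1, against 0 with no FPKM filter, 22 with DESeq2, and 9, 14, 11 and 24 without the MD1/MD1 XistdeltaA/+, +/+ XistdeltaA/+, MD1/MD1 Xist1lox/+ and +/+ Xist1lox/+ library. For Xist it called 0, against 5 with DESeq2, 891 without MD1/MD1 XistdeltaA/+ and 322 without +/+ XistdeltaA/+. Of 140 estimates for single genes under alternatives, 14 changed sign, all of main estimates of 0.246 or less in size, and the cause was not tested. Leaving out each library in turn, the Smchd1 estimate ran from -0.583 to 0.104 for Klhl32, -0.316 to 0.096 for Slc38a4, -0.129 to 0.099 for Tmem63c, -0.731 to -0.279 for Osbp2, -0.686 to -0.223 for Edn3 and -0.039 to 0.055 for BC021767, and the Xist estimate from -0.582 to 0.089 for Edn3, -0.564 to 0.162 for Klhl32, -0.05 to 0.149 for Zdbf2, -0.692 to -0.162 for Osbp2, -0.397 to -0.147 for Slc38a4 and -0.066 to 0.006 for BC021767. For Klhl32, Slc38a4 and Tmem63c with Smchd1, and for Edn3, Klhl32 and Zdbf2 with Xist, the sign changed without +/+ XistdeltaA/+. Tmem63c had a Smchd1 estimate of 0.048 with edgeR and 0.05 with DESeq2, and BC021767 of -0.01 with quantile normalization, which gave 0.068 for Xist. Fits without a library had the contrast as the only term and assume that the lone library of a group varies like the others. Libraries could not be paired by replicate because the labels give no replicate numbers. The Xist mutation, which the labels do give, is a term of the fit. Reads limit the shares: in the genes with under 100 reads a library, no maternal read still allows a maternal share of 3.09 to 4.55%. The exact intervals of these values ended at 3.73 to 5.44%.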

Other observations

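Cdkl1, which encodes a kinase related to the cyclin-dependent kinases, and Dleu7 had paternal shares of at least 90% in all 4 libraries but fewer than 50 reads in some library. Cdkl1 (chromosome 12) had paternal shares of 94.7% of 38 reads in MD1/MD1 XistdeltaA/+ and 93.5% of 46 in +/+ XistdeltaA/+, and of 92.9% of 56 in MD1/MD1 Xist1lox/+ and 95% of 60 in +/+ Xist1lox/+. Dleu7 (chromosome 14) had 93.3% of 45 in MD1/MD1 XistdeltaA/+ and 96.2% of 79 in +/+ XistdeltaA/+, and 97.4% of 38 in MD1/MD1 Xist1lox/+ and 90.9% of 22 in +/+ Xist1lox/+. The trophoblast markers Krt7, Hand1 and Tfap2c were the other list measured. They summed to 12 FPKM in MD1/MD1 XistdeltaA/+ against 5.94 in +/+ XistdeltaA/+, and to 1.75 in MD1/MD1 Xist1lox/+ against 5.26 in +/+ Xist1lox/+. Krt7 and Hand1 were highest in MD1/MD1 XistdeltaA/+, at 5.34 and 5.19 FPKM. Tfap2c was highest in +/+ XistdeltaA/+, at 3.02 against 1.51 in MD1/MD1 XistdeltaA/+.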
